A study of Mus musculus with 13 samples.

Results

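Heat shock proteins and their cochaperones were examined in cultured prostate progenitor/stem cells from adult mice, as 43 genes listed by symbol, from small heat shock proteins to the partners of Hsp90. Each gene was represented by the 1 probe set carrying its symbol alone that had the highest mean over the 13 arrays. In this way 41 of the 43 genes were measured, out of 18193 named genes on the array, and Hsp90ab1 and Hsf1 were not analysed here. The 41 genes had 102 such probe sets in all, 29 genes with several and 12 with 1.

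The cells were wild type (strain given as B1/6; 127/SVEV), came from mice 10 wk old and were at passage 22. They received 1,25-dihydroxyvitamin D3 (1,25D), the active vitamin D hormone, at 100 nM, or ethanol at 0.1% as vehicle. The 4 groups were 1,25D 48 h (4 arrays), vehicle 48 h (3), 1,25D 6 h (3) and vehicle 6 h (3), and the 48 h cultures were treated anew each day. The labels give the same genotype, age and passage for all groups, and none says whether replicates were separate cultures, so p-values measure only the spread between these arrays.

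Heat shock proteins are chaperones: they bind unfolded proteins, keep them from clumping and, in the case of the ATP-driven Hsp70, Hsp90 and chaperonin families, help them fold. Small heat shock proteins hold unfolded clients without ATP, J proteins deliver clients to Hsp70 and switch on its ATPase, and exchange factors such as the BAG proteins and Hsp110 release the client again. Many of these genes are switched on together by heat shock factor 1, which binds heat shock elements, arrays of GAA and TTC units near gene starts. Hsp90 and its cochaperones also hold steroid hormone receptors in a form that can bind hormone.

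Promoter windows of 5 members whose results are told below are printed first, because they show how the binding site of heat shock factors is laid out in genes that changed and in 1 that did not. Windows of 300 bases, the last 50 of them after the annotated gene start, come from RefSeq on GRCm38.p6 and are written on the strand of the gene. Heat shock elements were searched as GAA and TTC units that alternate with any 2 bases between neighbours, which is the same motif on both strands. Capitals mark runs of 3 or more units where the window has one, and otherwise of 2 units. Hspe1 and Hspd1, head-to-head genes for the mitochondrial chaperonin, share 285 bases of their windows, so that of Hspe1 shows both.
Hspe1, chr1:55087898-55088197, plus strand: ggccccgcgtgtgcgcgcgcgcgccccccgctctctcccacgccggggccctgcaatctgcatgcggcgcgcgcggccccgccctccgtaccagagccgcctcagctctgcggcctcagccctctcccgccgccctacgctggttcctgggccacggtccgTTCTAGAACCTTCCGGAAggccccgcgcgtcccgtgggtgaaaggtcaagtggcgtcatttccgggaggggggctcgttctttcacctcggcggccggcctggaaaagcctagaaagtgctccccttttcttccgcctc
Hsph1, chr5:149636266-149636565, minus strand: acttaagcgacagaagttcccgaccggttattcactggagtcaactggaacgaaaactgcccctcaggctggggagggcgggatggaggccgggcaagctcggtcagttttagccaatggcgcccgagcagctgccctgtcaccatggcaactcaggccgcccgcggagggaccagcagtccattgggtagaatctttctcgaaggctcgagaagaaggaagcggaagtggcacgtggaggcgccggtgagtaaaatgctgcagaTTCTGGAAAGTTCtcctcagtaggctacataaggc
Hspb1, chr5:135887669-135887968, plus strand: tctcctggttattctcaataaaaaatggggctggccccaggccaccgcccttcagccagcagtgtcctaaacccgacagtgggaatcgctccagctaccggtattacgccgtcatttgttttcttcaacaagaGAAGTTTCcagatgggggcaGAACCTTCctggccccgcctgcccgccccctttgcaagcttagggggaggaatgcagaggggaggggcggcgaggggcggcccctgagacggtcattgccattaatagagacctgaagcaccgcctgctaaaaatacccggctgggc
Hspb8, chr5:116422815-116423114, minus strand: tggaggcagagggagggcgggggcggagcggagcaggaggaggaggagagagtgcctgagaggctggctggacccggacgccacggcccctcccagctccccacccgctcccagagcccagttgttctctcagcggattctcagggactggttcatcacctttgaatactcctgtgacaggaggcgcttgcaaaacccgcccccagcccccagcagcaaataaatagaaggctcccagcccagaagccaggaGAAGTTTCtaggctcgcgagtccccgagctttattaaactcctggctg
Chordc1, chr9:18292017-18292316, plus strand: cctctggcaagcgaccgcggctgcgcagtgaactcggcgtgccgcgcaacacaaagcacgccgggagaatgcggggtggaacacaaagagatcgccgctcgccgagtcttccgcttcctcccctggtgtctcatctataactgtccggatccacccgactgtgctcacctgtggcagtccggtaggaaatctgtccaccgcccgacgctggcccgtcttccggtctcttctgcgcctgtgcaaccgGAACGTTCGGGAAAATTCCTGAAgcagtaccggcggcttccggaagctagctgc

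Windows of 34 members were matched by symbol, and those of Cryab, Hsf1, Hsp90aa1, Hsp90ab1, Hspa13, Hspa8, Hspa9, Hspb2 and St13 were not used here. At least 2 units stood in 17 of the 34 members, against 17.0% of 27025 genes with a window. At least 3 units stood in 5 of them (14.7%), namely Chordc1, Dnajb6, Hspd1, Hspe1 and Hsph1, against 0.662% of all genes with a window. Runs of at least 4 units stood in 3 members (8.82%, against 0.0296% of genes): Hspd1 and Hspe1 held 4 units, and Chordc1 held an unbroken run of 5, which 1 of the 27025 genes did. These matches are letters in a window, and binding of a factor was not measured. Members called in any comparison below held at least 2 units in 7 of 14 windows and members never called in 10 of 20. Hspa1a and Hspa1b differ at 4 of 300 bases of their windows, and as near-identical genes they may share signal, so which of the pair a probe set reads is uncertain.

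**Figure D1:**
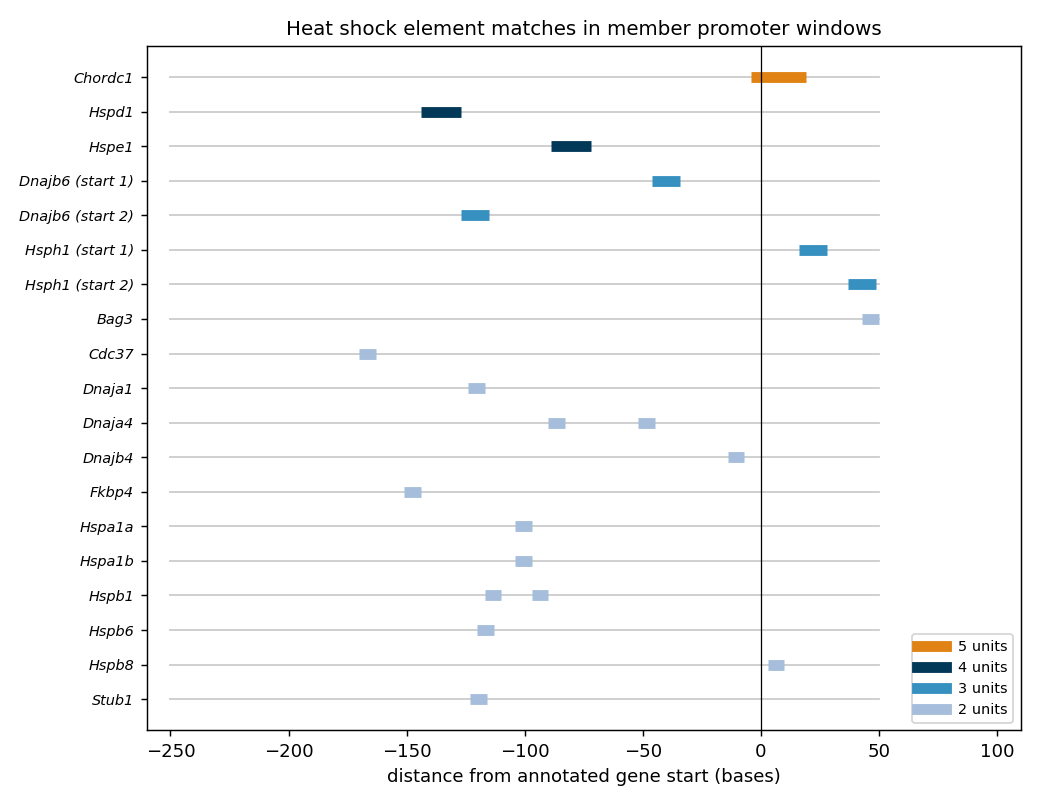
Positions of heat shock element matches (coloured bars, longest run of units found in each window) in the promoter windows of the members that hold one. The horizontal axis is the distance in bases from the annotated gene start, with no base 0. The 4-unit matches of Hspd1 and Hspe1 are 1 shared site seen from both genes, and the 5-unit run of Chordc1 lies across its start, from base -4 to base 19.

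Signals are the log2 values deposited by the authors. Each array's median lay between 5.57 and 5.67, and 2 arrays, vehicle 6 h replicate 1 and 1,25D 48 h replicate 4, had narrower signal distributions (interquartile ranges 3.03 and 2.95) than the other 11 (3.27 to 3.46). The difference of the 3′ and 5′ control probe sets of Gapdh, a reading of RNA integrity, was 0.11 to 0.20 in 1,25D 48 h, 0.11 to 0.23 in vehicle 48 h, 0.098 to 0.40 in 1,25D 6 h and 0.12 to 0.82 in vehicle 6 h, where replicate 3 was highest. The same difference for beta-actin was highest in vehicle 6 h replicate 3 (0.713), 1,25D 6 h replicate 2 (0.708) and vehicle 6 h replicate 2 (0.667), and at most 0.381 in the other arrays. Cyp24a1, the hydroxylase that breaks down 1,25D, averaged 12.39 in 1,25D 48 h against 4.56 in vehicle 48 h, and 13.03 in 1,25D 6 h against 4.53 in vehicle 6 h. Basal epithelial markers were bright, Krt5 and Krt14 lying at percentiles 99.2 and 99.9 of all probe sets and Trp63 at 86.0. So were the luminal keratins Krt8 and Krt18 (both 99.7) and the epithelial genes Cd24a (99.3), Epcam (98.9) and Cdh1 (98.4), and of the progenitor markers Cd44 (98.3) was the brightest. The prostate genes Pbsn (percentile 5.91) and Hoxb13 (31.1), the immune marker Ptprc (15.9) and all 5 endothelial markers (17.9 to 47.9) were dim. Of the 41 members, Hspa1l (28.6) and Hsf2 (39.3) were below the median of all probe sets, and for such dim genes a change can be understated.

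Changes below are log2 differences of group means from 1 limma fit over all 13 arrays, and a gene is said to have risen or fallen where its p, adjusted over all 45037 probe sets tested, was under 0.05. After 48 h of 1,25D, 3 of 41 members fell and 0 rose, where 2.39% of all genes were called, 1.43% higher and 0.951% lower. All 3 were small heat shock proteins: Hspb1, Hspb8 and Cryab. After 6 h, 1 of 41 rose, Hsph1, and 0 fell, where 0.852% of all genes were called, 0.687% higher and 0.165% lower. With time in vehicle, 17 of 41 changed, 6 higher and 11 lower, where 18.6% of all genes were called, 9.84% higher and 8.75% lower. Of these 17, 11 had other probe sets, 20 in all, of which 18 shared the sign and 5 were called. The sample labels used here name no processing day or batch. Between vehicle 48 h and vehicle 6 h, time in culture therefore cannot be told apart from any difference in processing. The response at 48 h differed from that at 6 h in 1 of 41, Hsph1, where 0.632% of all genes were called, 0.346% higher and 0.286% lower. At 48 h of 1,25D, 12 of 41 members had an unadjusted limma p under 0.05, against 1872 of 18193 genes. At 6 h 5 of 41 did, against 1276 of 18193. Counts at this level given below are to be read beside these numbers over all genes.

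The median change over the 41 members was -0.14 at 48 h of 1,25D, against -0.0024 over all genes, and 31 members lay below 0 (75.6%, against 50.8% of all genes). At 6 h the median was 0.043, against -0.020 over all genes, and 17 members lay below 0 (41.5%, against 54.8%). For time in vehicle it was -0.032 against -0.026, with 24 members below 0 (58.5%, against 54.9%). Most single changes were small: at 48 h only Hspb1, Cryab, Hspb8 and Dnaja4 moved further from 0 than the 0.36 of Dnaja1, and at 6 h only Hspa1a and Hsph1 moved further than the 0.26 of Hspa1l.

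**Figure D2:**
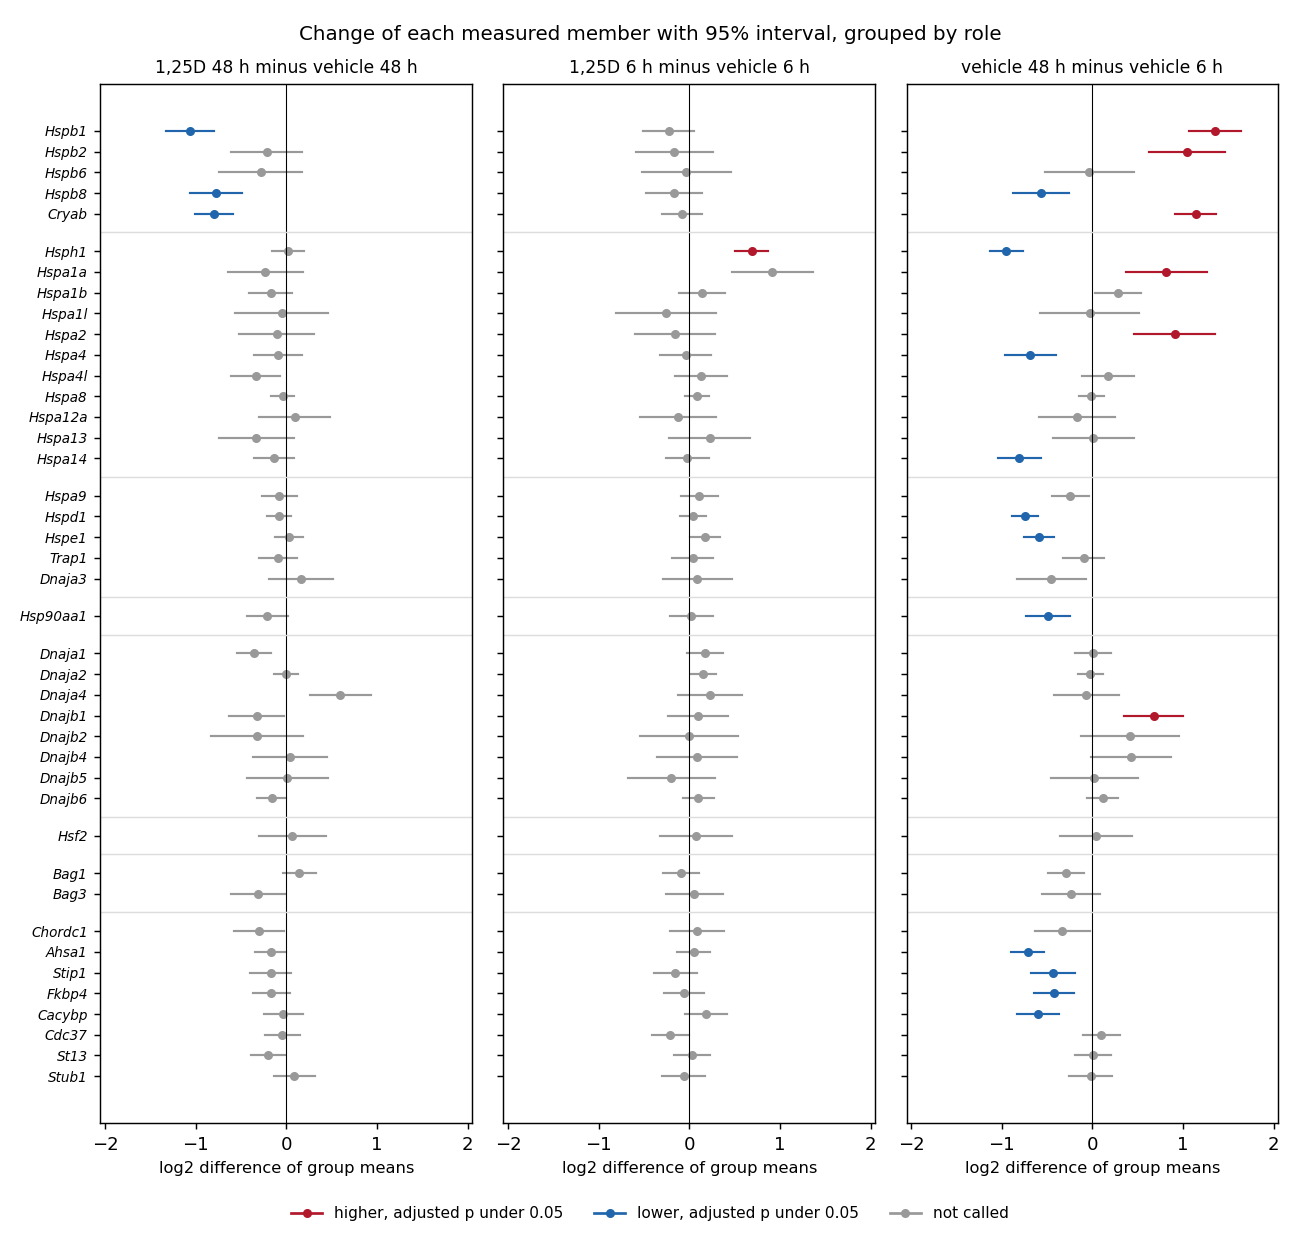
Log2 difference of group means for each of the 41 measured members, with its 95% interval from the limma fit, for 1,25D against vehicle at 48 h, at 6 h, and for vehicle 48 h against vehicle 6 h. Rows are grouped by role. The 3 falls at 48 h are in the small heat shock proteins at the top, the only rise at 6 h is Hsph1, and the comparison of times holds 6 rises and 11 falls.

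Small heat shock proteins were the members with the largest falls under 1,25D at 48 h. Hspb1 (Hsp27 in humans; probe set 1422943_a_at), which guards actin filaments and holds unfolded clients, read 11.24, 11.11, 11.41 and 11.07 in 1,25D 48 h and 12.07, 12.32 and 12.42 in vehicle 48 h. Every treated array lay below every vehicle array. The change was -1.06 (SE 0.12, adjusted p = 0.000293), which makes Hspb1 2.09-fold lower. At 6 h it read 10.84, 10.54 and 10.69 in 1,25D and 10.78, 11.18 and 10.79 in vehicle, and these groups overlapped, with a change of -0.23 (SE 0.13, adjusted p = 0.954). In vehicle cultures Hspb1 rose with time by 1.35 (SE 0.13, adjusted p = 1.43e-05), or 2.56-fold. The 48 h treated arrays thus lay below those of vehicle 48 h and overlapped the upper end of vehicle 6 h. A further probe set of Hspb1, 1425964_x_at, gave -1.12 at 48 h and 1.36 for time in vehicle, both called.

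Cryab, alpha-B crystallin, a small heat shock protein that keeps desmin and other filament proteins soluble, followed Hspb1 in direction in both of these comparisons, which share the vehicle 48 h arrays. It (probe set 1434369_a_at) read 10.44, 10.72, 10.72 and 10.44 in 1,25D 48 h and 11.43, 11.40 and 11.29 in vehicle 48 h, with no overlap. The change was -0.79 (SE 0.10, adjusted p = 0.000431), a fall of 1.73-fold. At 6 h its signal was 10.11, 10.16 and 10.20 in 1,25D and 10.19, 10.15 and 10.36 in vehicle, a change of -0.078 that did not pass (adjusted p = 0.971). Time in vehicle brought a rise of 1.14 (SE 0.10, adjusted p = 7.71e-06), or 2.2-fold. All 4 treated arrays at 48 h lay above all 6 arrays of 6 h and below all vehicle arrays of 48 h. A further probe set, 1416455_a_at, gave -0.81 at 48 h (adjusted p = 0.0446), whereas 1435837_at, whose mean lay at percentile 13.2 of all probe sets, gave 0.047 and was not called.

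Hspb8, a small heat shock protein that works with Bag3 in clearing misfolded proteins, fell with time and was lower still under 1,25D. Its values were 8.95, 8.88, 8.95 and 8.48 in 1,25D 48 h and 9.32, 9.75 and 9.69 in vehicle 48 h, again with no overlap. It fell by 0.77 (SE 0.13, adjusted p = 0.00833), or 1.71-fold. The call was lost without vehicle 48 h replicate 2 (adjusted p = 0.068), without vehicle 48 h replicate 3 (adjusted p = 0.0609) and in a fit of the 48 h arrays alone (adjusted p = 0.0653). At 6 h the arrays read 10.02, 9.91 and 10.02 in 1,25D and 10.09, 10.16 and 10.19 in vehicle. These did not overlap, yet the change of -0.17 did not pass (adjusted p = 0.971). In vehicle it fell with time by 0.56 (SE 0.14, adjusted p = 0.0185), a call that did not hold when vehicle 6 h replicate 2, vehicle 6 h replicate 3 or vehicle 48 h replicate 1 was left out. The other probe sets of Hspb8 were lower at 48 h as well, with changes of -0.73 and -0.40, and neither was called. With time in vehicle they gave -0.046 and -0.19, also not called.

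Hspb2 and Hspb6, small heat shock proteins known from muscle, did not pass under 1,25D at either time. Hspb2, the head-to-head neighbour of Cryab on chromosome 9, read 8.61, 8.65, 8.81 and 8.89 in 1,25D 48 h and 8.85, 9.14 and 8.88 in vehicle 48 h, and these overlapped (-0.22, adjusted p = 1). In vehicle it rose with time by 1.04 (SE 0.20, adjusted p = 0.00253), or 2.06-fold, its 6 h values being 7.83, 7.31 and 8.11 in 1,25D and 8.20, 7.86 and 7.68 in vehicle. Hspb6 ranged over 6.62 to 7.66 in 1,25D 48 h and 7.56 to 7.60 in vehicle 48 h, with 1,25D 48 h replicate 4 lowest, and its change with time in vehicle was -0.036. The 95% intervals of the 48 h changes, -0.61 to 0.18 for Hspb2 and -0.74 to 0.18 for Hspb6, leave room for changes of some size in either direction.

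Marker levels moved alongside these falls. The summed linear signal of 12 stromal and muscle markers was 1725 to 2080 in 1,25D 48 h and 2291 to 2710 in vehicle 48 h, and none of the 12 was called; 4 of them had means above the median of all probe sets, the brightest being Vim (change -0.55, adjusted p = 0.0565), while Des, Acta2 and Myh11 had differences of -0.095, -0.22 and 0.031 without a call. The difference of the stromal sums came mainly from Vim. Of the 12 stromal and muscle changes, 7 lay above 0 and 5 below (41.7%, against 50.8% of all genes), with a median of 0.040. For 7 luminal and prostate markers the sums were 36550 to 38540 in 1,25D 48 h and 46050 to 46710 in vehicle 48 h, with Krt8 and Krt18 called lower. Immune marker sums were 516.7 to 647.9 in 1,25D 48 h and 404.3 to 425.7 in vehicle 48 h over 7 genes, with Cd68 called higher (1.23), and neuroendocrine sums were 670.7 to 717.1 in 1,25D 48 h and 377.9 to 434.6 in vehicle 48 h over 3 genes, with Ncam1 called higher (0.88). The differences of these sums came mainly from Cd68 and Ncam1. Median changes were 0.085 over the 7 immune and 0.14 over the 3 neuroendocrine genes, of which 3 and 1 had means above the median of all probe sets. Basal marker sums overlapped (29400 to 32020 in 1,25D 48 h, 27330 to 30610 in vehicle 48 h), with Krt17 called higher. Progenitor marker sums over 4 genes were 4259 to 4792 in 1,25D 48 h and 4179 to 4251 in vehicle 48 h, with 0 called by limma and 2 at an unadjusted p under 0.05. Of these, Cd44 was higher (0.30, adjusted p = 0.0518) and Kit lower (-0.89, adjusted p = 0.191), and neither overlapped between the groups. The higher progenitor sum came from Cd44, while 3 of the 4 changes lay below 0 (75%, against 50.8% of all genes), with a median of -0.21. Psca and Prom1 averaged 8.82 and 7.03 in 1,25D 48 h, against 9.19 and 7.09 in vehicle 48 h. The part of these shifts in the small heat shock falls was not tested, and in bulk RNA fewer cells of a type and less RNA per cell cannot be told apart. At 6 h the stromal sums were 2672 to 3166 in 1,25D and 2581 to 3751 in vehicle and overlapped, whereas the luminal sums, 39030 to 39640 in 1,25D and 39840 to 41250 in vehicle, did not. The difference of Krt8 there was -0.14 (unadjusted p = 0.0163, adjusted p = 0.593), and its part in the results at 6 h was not tested. At this time limma called 0 markers of the 7 lists, with 3 at an unadjusted p under 0.05. Basal markers held 2 of these 3. Of the 7 basal changes at 6 h, 6 lay below 0 (85.7%, against 54.8% of all genes), with a median of -0.15 and a lowest of -0.39. Basal sums at 6 h overlapped, with 26400 to 27280 in 1,25D and 26800 to 31230 in vehicle.

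**Figure D3:**
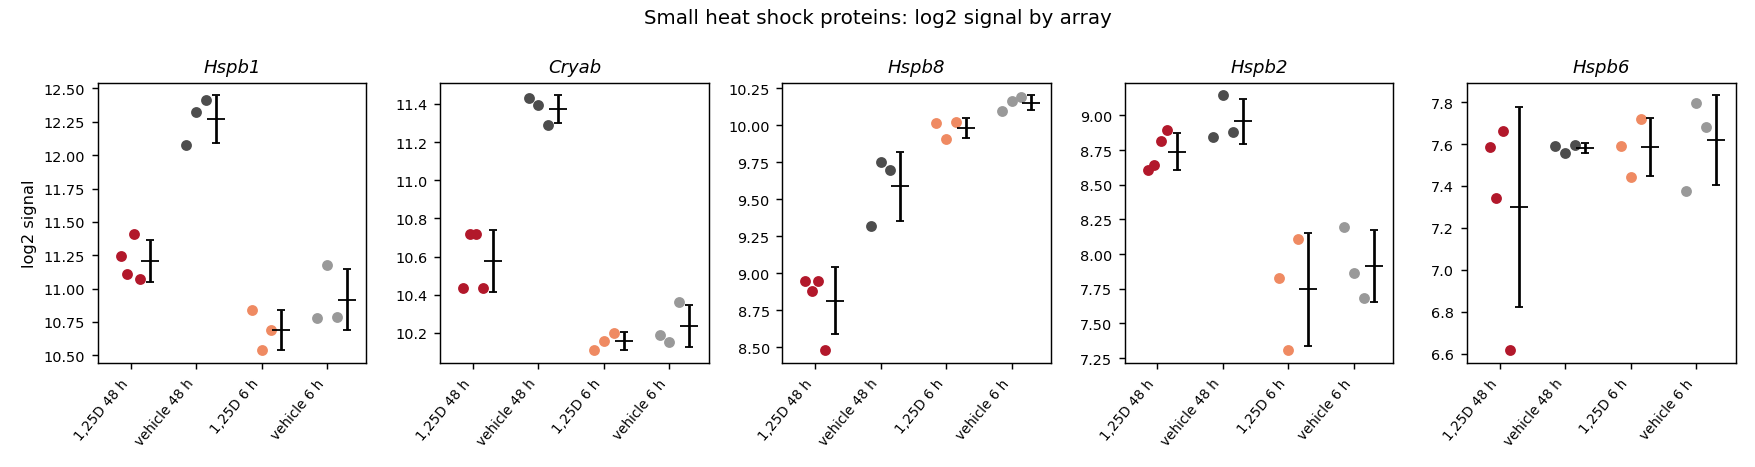
Log2 signal of the 5 small heat shock protein genes on each array (points), with group mean and SD beside them, for 1,25D 48 h, vehicle 48 h, 1,25D 6 h and vehicle 6 h. The vertical scales differ between genes. For Hspb1 and Cryab the vehicle 48 h arrays stand above the other 3 groups, and for Hspb8 the 1,25D 48 h arrays stand lowest.

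Among the Hsp110 and Hsp70 genes, 1 of 11 measured rose at 6 h and 0 fell, and at 48 h of 1,25D limma called 0 of 11, with 1 at an unadjusted p under 0.05. The riser was Hsph1, or Hsp110 (probe set 1425993_a_at), which exchanges the nucleotide on Hsp70 and helps it to dissolve protein aggregates. It read 12.76, 12.85 and 12.67 in 1,25D 6 h and 11.98, 12.03 and 12.20 in vehicle 6 h, without overlap. The rise was 0.69 (SE 0.086, adjusted p = 0.000994), or 1.61-fold, and it was 0.75 without vehicle 6 h replicate 3, the array with the largest Gapdh 3′ to 5′ difference. By beta-actin, 1,25D 6 h replicate 2 and vehicle 6 h replicate 2 read nearly as high as that array, and the part of RNA integrity in the rise was not tested. At 48 h the values were 11.08, 11.28, 11.05 and 11.14 in 1,25D and 11.12, 11.03 and 11.21 in vehicle, which overlapped, with a change of 0.018 (95% interval -0.15 to 0.19). The response at 48 h minus that at 6 h was -0.67 (SE 0.12, adjusted p = 0.0246), called by the test of the difference itself, but this call depended on single arrays. Single omissions ended it for 8 of the 13 arrays, namely replicates 1 and 2 of vehicle 6 h, 1 and 2 of 1,25D 6 h, 1 and 3 of vehicle 48 h, and 1 and 3 of 1,25D 48 h, with adjusted p between 0.0589 and 0.0844. In vehicle, Hsph1 fell with time by 0.95 (SE 0.086, adjusted p = 6.83e-06), or 1.93-fold. Probe set 1423566_a_at of the same gene gave 1.22 at 6 h, 0.062 at 48 h and -0.67 for time in vehicle, with the first and last of these called. Over all arrays it was also called for the difference of the responses, in the same direction.

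Hspa1a and Hspa1b encode the stress-inducible Hsp70 itself. Hspa1a read 8.35, 8.35 and 8.49 in 1,25D 6 h and 7.14, 7.36 and 7.94 in vehicle 6 h. The arrays did not overlap, but vehicle spread widely, and the change of 0.92 (SE 0.21, adjusted p = 0.0855) missed the threshold. Without vehicle 6 h replicate 3 it passed, at 1.15 (adjusted p = 0.0142), and without 1,25D 48 h replicate 4, which enters this comparison only through the shared spread, it passed as well (adjusted p = 0.0332). At 48 h Hspa1a read 8.15, 8.37, 8.09 and 7.65 in 1,25D and 8.35, 8.17 and 8.36 in vehicle, a change of -0.23 with overlapping arrays. In vehicle it rose with time by 0.81 (SE 0.21, adjusted p = 0.0184), a call that ended (adjusted p up to 0.0686) when replicate 1 or 2 of vehicle 6 h, or replicate 1 or 3 of vehicle 48 h, was left out. Hspa1b gave 0.14 at 6 h, -0.17 at 48 h and 0.28 with time, none called, and its 3 probe sets lay between 0.10 and 0.15 at 6 h. The probe sets of these near-identical genes therefore differed in the size of their changes.

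Other Hsp70-class genes were called with time in vehicle and in no comparison with 1,25D. Hspa2, an Hsp70 best known from testis, rose by 0.91 (SE 0.21, adjusted p = 0.00924), with 7.60, 7.43 and 7.47 in vehicle 48 h and 6.19, 6.56 and 7.02 in vehicle 6 h. Hspa4, a further Hsp110-type exchange factor, fell by 0.69 (SE 0.13, adjusted p = 0.00273), with 11.78, 11.55 and 11.66 in vehicle 48 h and 12.23, 12.48 and 12.33 in vehicle 6 h. In both genes vehicle 48 h and vehicle 6 h stood fully apart by the probe set used. Of 3 further probe sets of Hspa4, 2 shared the sign of its change and 0 were called. Hspa14, which works at the ribosome on new chains, fell by 0.81 (SE 0.11, adjusted p = 0.000218), with 10.0, 10.10 and 9.79 in vehicle 48 h and 10.82, 10.92 and 10.58 in vehicle 6 h. It too had no overlap between the times, and its 2 further probe sets shared the sign without a call. In 1,25D arrays Hspa2 read 7.30, 7.73, 7.35 and 7.21 at 48 h and 6.21, 6.66 and 6.43 at 6 h. Hspa4 read 11.62, 11.82, 11.40 and 11.44 in 1,25D 48 h and 12.19, 12.59 and 12.14 in 1,25D 6 h. For Hspa14 the 1,25D values were 9.75, 9.94, 9.85 and 9.77 at 48 h and 10.73, 10.74 and 10.77 at 6 h. Each of these genes overlapped vehicle of the same time. Hspa8, the constitutive Hsp70, varied least of these: its changes were -0.040 at 48 h, 0.085 at 6 h and -0.012 with time (95% interval -0.15 to 0.12). Its probe sets disagreed on time, as 1431182_at, at percentile 68.8, gave -1.24 (adjusted p = 0.000302) while the 3 brighter ones lay between -0.10 and 0.09. Hspa1l, Hspa12a, Hspa13 and Hspa4l passed in no comparison, their changes under 1,25D lying between -0.34 (Hspa4l at 48 h) and 0.23 (Hspa13 at 6 h).

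**Figure D4:**
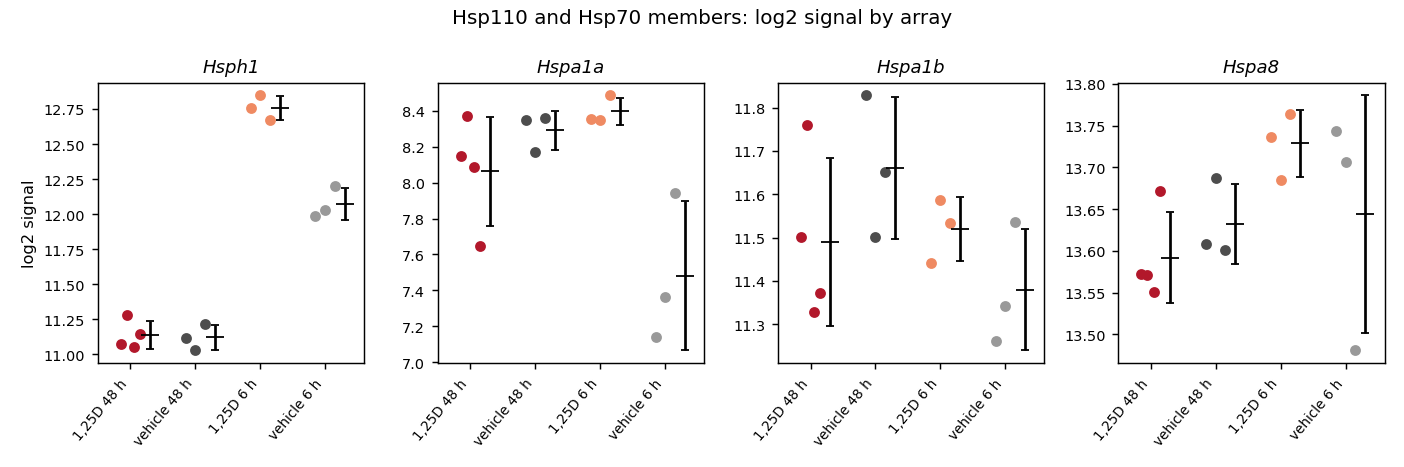
Log2 signal of Hsph1, Hspa1a, Hspa1b and Hspa8 on each array (points) with group mean and SD, in the order 1,25D 48 h, vehicle 48 h, 1,25D 6 h, vehicle 6 h. The vertical scales differ between genes. The 1,25D 6 h arrays of Hsph1 lie above all other arrays, and the spread of vehicle 6 h is wide for Hspa1a.

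Chaperones of mitochondria did not pass under 1,25D at either time, and 2 of 5 fell with time in vehicle, where 8.75% of all genes fell. At 48 h of 1,25D, limma called 0 of 5, with 0 at an unadjusted p under 0.05; at 6 h it called 0 of 5, with 1 at that level, Hspe1. Hspd1 (Hsp60) and Hspe1 (Hsp10) form the chaperonin barrel and its lid, and they lie at the shared promoter printed above. Hspd1 read 12.29, 12.44 and 12.36 in vehicle 48 h and 13.07, 13.12 and 13.12 in vehicle 6 h, a fall of 0.74 (SE 0.067, adjusted p = 6.65e-06). Hspe1 read 12.02, 12.13 and 12 in vehicle 48 h and 12.76, 12.67 and 12.50 in vehicle 6 h, a fall of 0.59 (SE 0.075, adjusted p = 0.000126). Neither gene overlapped between the times. In 1,25D arrays Hspd1 read 12.32, 12.20, 12.20 and 12.41 at 48 h and 13.13, 13.22 and 13.09 at 6 h, and these overlapped vehicle of the same time. Hspe1 read 12.01, 12.01, 12.16 and 12.16 in 1,25D 48 h and 12.78, 12.86 and 12.80 in 1,25D 6 h, where it lay just above vehicle 6 h. Under 1,25D, Hspd1 differed from vehicle by -0.078 at 48 h (95% interval -0.21 to 0.056) and 0.043 at 6 h, and Hspe1 by 0.032 (-0.12 to 0.18) and 0.17. The 48 h intervals do not reach the size of the falls with time. Hspa9, the Hsp70 of mitochondria, its J protein partner Dnaja3 and the mitochondrial Hsp90 Trap1 had differences with time of -0.25, -0.45 and -0.10 without passing. The arrays of Dnaja3 did not overlap between the times, and its fall passed without vehicle 6 h replicate 1 (-0.61, adjusted p = 0.0333), without both narrow arrays (-0.61, adjusted p = 0.0229) and with array weights (-0.57, adjusted p = 0.0246).

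Hsp90aa1, the inducible cytosolic Hsp90, fell with time in vehicle, as did 4 of 8 measured cochaperones of Hsp90 and Hsp70, where 8.75% of all genes fell. Hsp90aa1 read 12.58, 12.65 and 12.34 in vehicle 48 h and 13.25, 13.02 and 12.78 in vehicle 6 h, a fall of 0.49 (SE 0.11, adjusted p = 0.00859), and 12.19, 12.40, 12.22 and 12.45 in 1,25D 48 h and 13.04, 13.02 and 13.05 in 1,25D 6 h. Ahsa1, which speeds up the ATPase of Hsp90, showed the largest fall among the 8 cochaperones, 0.71 (SE 0.085, adjusted p = 7.29e-05). It read 10.57, 10.81 and 10.69 in vehicle 48 h and 11.47, 11.39 and 11.35 in vehicle 6 h, and 10.55, 10.43, 10.60 and 10.50 in 1,25D 48 h and 11.49, 11.37 and 11.48 in 1,25D 6 h. Cacybp, a Siah1-binding protein with a CS domain of the kind that contacts Hsp90, fell by 0.61 (SE 0.11, adjusted p = 0.00168). Its values were 10.74, 10.83 and 10.72 in vehicle 48 h and 11.64, 11.34 and 11.13 in vehicle 6 h, and 10.66, 10.72, 10.75 and 10.81 in 1,25D 48 h and 11.52, 11.52 and 11.62 in 1,25D 6 h. Stip1, the adaptor that joins Hsp70 to Hsp90, fell by 0.43 (SE 0.11, adjusted p = 0.0187). It stood at 9.95, 10.02 and 9.92 in vehicle 48 h and 10.26, 10.53 and 10.41 in vehicle 6 h, and at 9.82, 9.79, 9.85 and 9.71 in 1,25D 48 h and 10.16, 10.10 and 10.47 in 1,25D 6 h, so that its 1,25D 48 h arrays lay below all of vehicle 48 h without a call (-0.17, adjusted p = 0.973). Fkbp4, an immunophilin of steroid receptor complexes, fell by 0.43 (SE 0.10, adjusted p = 0.0126). Its signal was 10.84, 10.95 and 10.74 in vehicle 48 h and 11.30, 11.34 and 11.17 in vehicle 6 h, and 10.66, 10.73, 10.75 and 10.56 in 1,25D 48 h and 11.32, 11 and 11.31 in 1,25D 6 h. None of these 5 genes overlapped between vehicle 48 h and vehicle 6 h by the probe set used. Further probe sets shared the sign of the fall but were mostly not called: 1 of 4 was called for Hsp90aa1, 0 of 1 for Ahsa1 and 0 of 2 for Fkbp4. Dropping vehicle 6 h replicate 2, vehicle 48 h replicate 1 or vehicle 48 h replicate 3 ended the call of Stip1, and dropping the last of these ended that of Fkbp4.

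The remaining cochaperones stayed short of the threshold with time: Chordc1, a cochaperone with zinc-binding CHORD domains, by -0.33, the kinase adaptor Cdc37 by 0.10, the Hsp70 partner St13 by 0.0065 and the ubiquitin ligase Stub1 (CHIP) by -0.020. Under 1,25D limma called 0 of the 8 at 48 h and 0 at 6 h. At an unadjusted p under 0.05 there were 3 and 1, against 1872 and 1276 of all 18193 genes. At 48 h, 7 of the 8 changes lay below 0 (87.5%, against 50.8% of all genes). The median was -0.17 and the lowest was Chordc1 at -0.30 (adjusted p = 0.638). Chordc1, whose window holds the run of 5 heat shock element units, read 9.49, 9.78, 9.47 and 9.39 in 1,25D 48 h and 9.99, 9.78 and 9.72 in vehicle 48 h, which overlapped. Hsp90aa1 itself differed from vehicle by -0.21 at 48 h (95% interval -0.43 to 0.015) and 0.020 at 6 h.

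**Figure D5:**
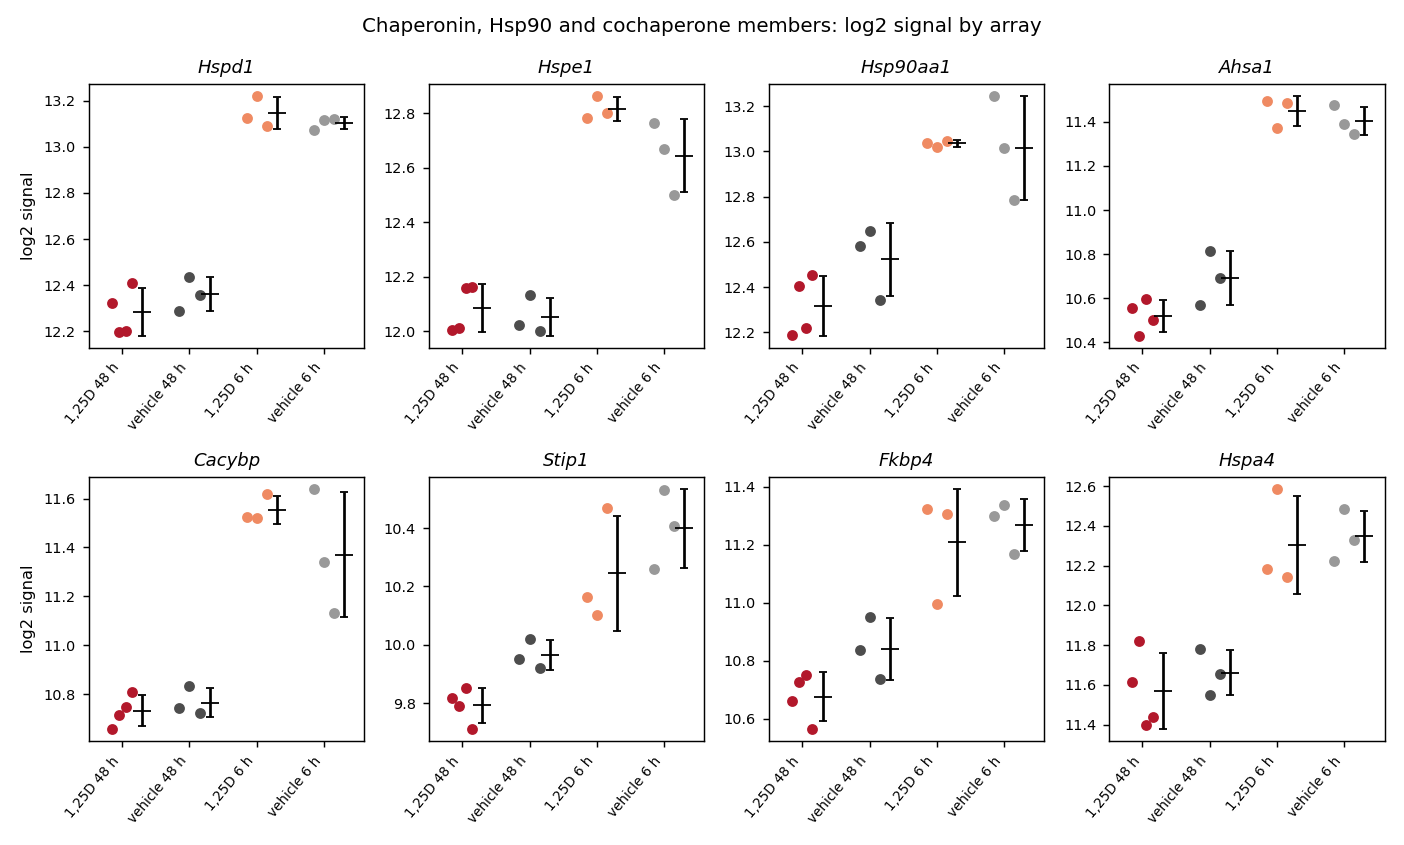
Log2 signal of Hspd1, Hspe1, Hsp90aa1, Ahsa1, Cacybp, Stip1, Fkbp4 and Hspa4 on each array (points) with group mean and SD, in the order 1,25D 48 h, vehicle 48 h, 1,25D 6 h, vehicle 6 h. The vertical scales differ between genes. All 8 were lower in vehicle 48 h than in vehicle 6 h, with no overlap between these arrays.

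J proteins were divided in direction at 48 h of 1,25D. Limma called 0 of 8 there, with 4 at an unadjusted p under 0.05, against 1872 of all 18193 genes. Dnaja1, a cytosolic partner of Hsp70, read 11.54, 11.52, 11.52 and 11.72 in 1,25D 48 h and 11.93, 12.06 and 11.81 in vehicle 48 h. These arrays did not overlap, and the change of -0.36 (SE 0.086, adjusted p = 0.0688) missed the threshold. Without vehicle 6 h replicate 1 (adjusted p = 0.0427), vehicle 6 h replicate 2 (adjusted p = 0.0338) or 1,25D 48 h replicate 4 (adjusted p = 0.0437) it passed. The vehicle 6 h arrays enter this comparison only through the shared spread, and without either of them the change stayed at -0.36. It also passed without the 2 arrays with narrow distributions (-0.40, adjusted p = 0.0217), and its probe set 1460179_at gave -0.45 and was called (adjusted p = 0.00926). Dnaja4, a relative of Dnaja1, went the other way, with 8.79, 9.0, 8.77 and 8.29 in 1,25D 48 h and 8.23, 7.99 and 8.13 in vehicle 48 h. All treated arrays were higher than all vehicle arrays, and the change was 0.60 (SE 0.15, adjusted p = 0.101). Without 1,25D 48 h replicate 4, the lowest treated array, it was 0.74 and passed (adjusted p = 0.00798), and probe set 1434196_at gave 0.80 (adjusted p = 0.0119) over all arrays.

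Dnajb1 (Hsp40), the J protein that rises with Hsp70 under heat, was the only one of 8 J proteins called with time in vehicle by the probe set used, a rise of 0.67 (SE 0.15, adjusted p = 0.00905); 1460179_at of Dnaja1 fell by 0.29 (adjusted p = 0.0391). It read 10.63, 10.78 and 10.61 in vehicle 48 h and 10.15, 10.05 and 9.80 in vehicle 6 h, with no overlap, and 10.21, 9.75 and 10.33 in 1,25D 6 h. In 1,25D 48 h it read 10.28, 10.51, 10.46 and 10.13, all below vehicle 48 h, but the change of -0.33 (SE 0.14, adjusted p = 0.642) did not pass; its probe set 1416755_at gave -0.62 and was called (adjusted p = 0.0255), whereas with time in vehicle it gave 0.39 and was not called (adjusted p = 0.0884). Dnaja2, Dnajb2, Dnajb4, Dnajb5 and Dnajb6 passed in no comparison by the probe set used, although 1431734_a_at of Dnajb4 rose with time by 0.79 (adjusted p = 0.014). At 6 h of 1,25D, 6 of the 8 changes lay above 0, none beyond 0.23, and 2 below 0 (25%, against 54.8% of all genes). Limma called 0 of 8 at that time, with 1 at an unadjusted p under 0.05.

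Of the regulators, the transcription factor Hsf2 was dim and had differences of 0.068 at 48 h, 0.075 at 6 h and 0.042 with time. Bag3, an exchange factor that directs clients of Hspb8 to autophagy, read 9.67, 9.25, 9.56 and 9.35 in 1,25D 48 h and 9.65, 9.80 and 9.87 in vehicle 48 h. The highest treated array lay above the lowest vehicle array, and the change was -0.31 (SE 0.14, adjusted p = 0.642). Bag1, an exchange factor with a ubiquitin-like domain, differed from vehicle by 0.14 at 48 h, where its arrays did not overlap (10.77 to 10.88 in 1,25D, 10.58 to 10.76 in vehicle) yet it did not pass (adjusted p = 0.972), and by -0.091 at 6 h. With time in vehicle its arrays did not overlap, at 10.65, 10.76 and 10.58 in vehicle 48 h and 10.79, 10.98 and 11.09 in vehicle 6 h, and the change of -0.29 narrowly missed (adjusted p = 0.0545) but passed without vehicle 6 h replicate 1 (adjusted p = 0.0153).

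Counted by overlap instead of by call, treated and vehicle arrays stood fully apart at 48 h in 8 of 41 members (12.6% of all genes did so) and at 6 h in 5 of 41 (10.2%). For vehicle 48 h against vehicle 6 h the count was 19 of 41 (31% of all genes). The signs at both times of 1,25D, which rest on different arrays, were higher at 6 h and lower at 48 h in 18 members, lower at both in 13, higher at both in 6 and lower at 6 h and higher at 48 h in 4, counting all 41 whatever their p. These patterns were not counted over all genes, so the share of genes with each is not known. Besides Hsph1, the difference between the responses was -0.72 for Cryab (adjusted p = 0.0518), -0.83 for Hspb1 (adjusted p = 0.0889), -0.52 for Dnaja1 (adjusted p = 0.147) and -1.15 for Hspa1a (adjusted p = 0.175), none of them called over all arrays by the probe set used. The other probe set of Dnaja1, 1460179_at, was called (-0.63, adjusted p = 0.0326), and the probe set used passed without both narrow arrays (-0.65, adjusted p = 0.0331) and with array weights (-0.60, adjusted p = 0.0126). Without vehicle 6 h replicate 3, Cryab (adjusted p = 0.04995) and Hspa1a (adjusted p = 0.0423) passed, without 1,25D 48 h replicate 2 Cryab (adjusted p = 0.047), and without vehicle 6 h replicate 2 Hspb1 (adjusted p = 0.0344).

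Chaperone genes outside the 41 were taken from lists drawn up by function. The cytosolic chaperonin TRiC, a double ring that folds actin and tubulin, and its prefoldin feeder showed 0 calls of 14 by limma under 1,25D at 48 h and 0 at 6 h, with 1 and 2 at an unadjusted p under 0.05. With time in vehicle 6 of the 14 fell and 1 rose, with a median of -0.28, where 8.75% of all genes fell and 9.84% rose. The falls included the TRiC subunits Cct6a (-0.46), Cct8 (-0.55) and Cct3 (-0.66), and the rise was the prefoldin subunit Pfdn5 (0.79). Of 22 further partners of Hsp90 and Hsp70 (Ptges3 and Ppid were not analysed here), 7 fell and 1 rose with time, the smallest p belonging to the J proteins Dnajc9 (-1.12) and Dnajc2 (-1.12), the second a ribosome partner of Hspa14, the Hsp90 partner Nudc (-0.75) and the immunophilin Fkbp5 (-1.06). Limma called 0 of these 22 under 1,25D at 48 h and 0 at 6 h. At an unadjusted p under 0.05 there were 3 at each time, against 1872 and 1276 of all 18193 genes.

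Chaperones of the endoplasmic reticulum were mixed with time in vehicle, 2 of 14 rising and 3 falling, where 9.84% of all genes rose and 8.75% fell. The exchange factor Sil1 (0.86) and the J protein Dnajb9 (0.98) rose, while the Hsp110 relative Hyou1 (-0.62), the J protein Dnajb11 (-0.48) and the lectin chaperone Calr (-0.50) fell. Under 1,25D limma called 0 of 14 at 48 h and 0 at 6 h. At an unadjusted p under 0.05 there were 3 and 4, against 1872 and 1276 of all 18193 genes. Among 11 other measured genes under or around heat shock factor control, including the collagen chaperone Serpinh1 (-0.13 at 48 h) and Hmox1 (-0.35), 1 rose with time, the autophagy receptor Sqstm1 (0.48), and 0 fell; under 1,25D limma called 0 at 48 h and 0 at 6 h, with 0 and 1 at an unadjusted p under 0.05. With time in vehicle the summed luminal marker signal was 46050 to 46710 in vehicle 48 h and 39840 to 41250 in vehicle 6 h, and the progenitor markers Kit (3.59) and Psca (2.36) and the basal marker Trp63 (1.14) rose, while Cd44, the brightest progenitor marker, fell (-0.45). The summed progenitor signal was 4179 to 4251 in vehicle 48 h and 4254 to 4796 in vehicle 6 h. The part of these shifts in the changes of chaperone genes was not tested.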

How the data were processed

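Each RNA was hybridised to 1 Affymetrix mouse array, and 45101 probe sets on 13 arrays were used. Values are log2 signals deposited by the authors; the submitters' processing notes name MAS5 without version or role, and beyond that name how background and scaling were treated is not given in the sources used here. The values were used as given. The 64 control probe sets were set aside, leaving 45037, of which 34945 had 1 gene symbol, 932 several and 9160 none in the platform annotation. No detection calls were used, and the number of arrays limits precision.

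Group means were fitted over 13 arrays in limma 3.58.1 (R 4.3.3; eBayes with an intensity trend, two-sided), with Benjamini-Hochberg adjustment over all probe sets. Figures used matplotlib 3.10.9. Members, role groups, lists and alternatives were chosen with earlier results of these data known. Every called member is given with its value on every array, the member with the smallest p in each role group is named, and other members are given by counts, ranges or change; in the other lists up to 4 called genes with the smallest p are named per comparison, and Calr, Serpinh1 and Hmox1 were added after their values were seen. The fit was tested on simulated data over 18193 genes with 100 genes changed at each of the log2 sizes 1 and 2: it called 77 and 99 of them at 6 h, 84 and 99 at 48 h, 46 and 90 for the difference, and 74 and 98 for time. Alternatives were other normalizations, an offset of 16, other variance priors, a filter on the dimmest 40%, array weights, a replicate block, other choices of probe set, a 1.5-fold minimum, and fits without single arrays or 2 arrays.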

Additional observations from a re-analysis of the deposited data

Results flagged for a closer look

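In the group of 4 arrays, 1,25D 48 h, 5 of 41 members had 1 array set far from the other 3; chance does this in about 1 group in 20, and groups of 3 were not examined. The members' share, 12.2%, lay near the 11.4% of all 18193 genes, most of which (8.57% of all genes) had replicate 4 as that array. Replicate 4, an array with a narrow distribution, was low for Hspb8 (8.48, others 8.88 to 8.95) and Dnajb2 (7.27, others 7.98 to 8.07) and high for Dnaja1 (11.72, others 11.52 to 11.54). Replicate 2 was high for Dnajb4 (9.37, others 8.67 to 8.78) and Bag1 (10.88, others 10.77 to 10.78). Without replicate 4, the change under 1,25D at 48 h was -0.66 (limma, adjusted p = 0.0112) for Hspb8 and -0.40 (adjusted p = 0.0437) for Dnaja1.

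Hsph1 answered 1,25D differently at 48 h and at 6 h by the test of the difference, -0.67 on the log2 scale (limma, adjusted p = 0.0246), with 11.14 ± 0.102 (SD, n = 4) in 1,25D 48 h against 11.12 ± 0.0922 (SD, n = 3) in vehicle 48 h, and 12.76 ± 0.0862 (SD, n = 3) in 1,25D 6 h against 12.07 ± 0.116 (SD, n = 3) in vehicle 6 h. This call was lost in 11 of 24 alternatives (adjusted p up to 0.101), among them the replicate block, the fit with no intensity trend, the fit without both narrow arrays and 8 fits that each left out a single array. The other probe set of Hsph1 was called for this difference in the same direction over all arrays.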

How the results depend on the processing

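Among members, the calls of Hspb1 at 48 h and Hsph1 at 6 h were kept in every alternative that measured them; both have only probe sets marked for several transcripts or cross-matches, so the alternative without such sets does not hold them. The count called at 6 h (1) was 2 with quantile normalization, array weights or the mean of all probe sets, and 0 without probe sets marked for cross-matches, where 36 members remained. The count at 48 h (3) was 2 with only the groups compared, 5 with array weights, 6 with the mean of all probe sets, 5 without the 2 narrow arrays and 1 without marked probe sets. The count for the difference of responses (1) was 2 with quantile normalization or without dim probe sets, 4 with array weights, 3 with the mean of all probe sets, and 0 without an intensity trend, with the replicate block or without marked probe sets; without the 2 narrow arrays it was 1, then Dnaja1 and not Hsph1. Leaving out single arrays gave 1 to 2 at 6 h, 2 to 5 at 48 h, 0 to 3 for the difference and 14 to 18 for time in vehicle (17). The 4 groups share replicate numbers, but correlations of same-numbered deviations ran from 0.0692 to 0.277 at 6 h and from -0.534 to 0.386 at 48 h, so the numbers were not treated as pairs. Besides Hsph1 for the difference, the replicate block (1, 4, 0 and 17 called) changed no member's call except Dnaja4 at 48 h, which was then called higher (0.74, adjusted p = 0.0244). Without marked probe sets Cryab rests on its dim probe set and turned to 0.047 at 48 h and -0.047 with time. Fitting only the groups compared dropped Hspb8 at 48 h and Hspb8, Hspa1a, Stip1 and Hsp90aa1 with time; the mean of all probe sets dropped Hspb8, Hspa4, Hsp90aa1 and Fkbp4 with time, omission of marked probe sets dropped Fkbp4 with time, and a 1.5-fold minimum dropped Hspb8, Hsp90aa1, Stip1 and Fkbp4. Over all genes, counts past the threshold were 155 at 6 h (68 with only the groups compared, 248 without the 2 narrow arrays), 434 at 48 h (260 without vehicle 48 h replicate 2, 1043 with array weights) and 115 for the difference (66 without 1,25D 6 h replicate 1, 262 with array weights), the lowest and highest of the alternatives run. For the difference, fitting only the groups compared was not run, since it needs all 4. Causes were not tested.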
